A study of Mus musculus with 8 samples.

Results

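The genes described here encode 9 subunits of inward rectifier potassium channels measured in mouse ventral pallidum (VP) RNA: the G protein-gated GIRK subunits Kcnj3, Kcnj6 and Kcnj9, the Kir2 subunits Kcnj2, Kcnj4 and Kcnj12, the pore subunit of the KATP channel Kcnj11, and the glial subunits Kcnj10 (Kir4.1) and Kcnj16 (Kir5.1). They were chosen by gene symbol, and all 9 were found among the 14353 genes of the deposited table. The RNA came from untreated vGluT2-Cre x RiboTag mice, which the labels give as homozygous for VGluT2-Cre and heterozygous for Rpl22, and this genotype was shared by every library. RiboTag mice carry an HA tag on the ribosomal protein Rpl22 in cells with Cre, so pulling down HA collects ribosome-bound mRNA of vGluT2-expressing cells (TRAP), whereas INPUT is mRNA of the VP lysate. The 4 pools were VP1.6 (3 male and 4 female mice, 9 to 12 weeks), VP2.2 (4 and 6, 10 to 16 weeks), VP2.6 (4 and 7, 10 to 16 weeks) and VP2.11 (4 and 6, 10 to 16 weeks), and each gave 1 TRAP and 1 INPUT library (n = 4 per fraction). The methods also call the sequenced control an unbound fraction, and they warn that the punches could hold neighbouring striatum.

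Inward rectifiers pass potassium into the cell more readily than out of it and hold the membrane near the potassium equilibrium potential. GIRK channels open when a receptor coupled to Gi/o releases G beta gamma, which slows neuronal firing. Kir2 channels are constitutively active strong rectifiers, KATP channels close when ATP is plentiful, and Kir4.1 and Kir5.1 are known from astrocytes and oligodendrocytes, where they carry potassium away from active neurons. In bulk fractions such as these, fewer cells of a type and less mRNA per cell cannot be told apart.

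The label of the pulldown was first checked against markers. Slc17a6, which encodes vGluT2, was between 130.1 and 162 CPM (reads of a gene scaled to the total of its library) in the TRAP libraries and between 14.4 and 39.4 CPM in the INPUT libraries, and 5 of 6 glutamate neuron markers were higher in TRAP and 0 lower. Of 8 astrocyte markers, 5 were lower and 0 higher in TRAP. Of 8 oligodendrocyte markers, 7 were lower and 1, Mag, was higher (log2 difference 0.61, adjusted p from limma 0.035, or 0.072 with the pool as a block). None of either list was absent from TRAP. The summed level of the astrocyte list was 1446 to 1898 CPM in TRAP and 1974 to 2392 CPM in INPUT, and its lowest single value was 11.3 CPM. Aldoc was the largest part of these sums, with means of 1288 CPM in TRAP and 1378 CPM in INPUT, and did not pass (-0.09, adjusted p 0.68). For the oligodendrocyte list the sums were 1287 to 2226 CPM and 4752 to 5035 CPM. Of all genes tested by limma, 23.2% were higher and 24.8% lower in TRAP. Depth was read from low genes, whose values step by whole reads. TRAP and INPUT of VP2.2 had library sizes of about 13.1 and 39.7 M reads, and those of VP2.6 about 12.9 and 25.7 M. These are sizes as scaled by the authors, not raw totals, and they take the shift described below as centred on 0 for low genes. The depth of VP1.6 and VP2.11 is unknown. In VP2.2 and VP2.6 a gene's values also carried a shift common to both libraries (SD 0.35 log2 over genes), which leaves the difference within the pool as the reads give it but moves the level.

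Kcnj9 and Kcnj10 lie head to head on chromosome 1, with starts 11.9 kb apart, and belong to the GIRK and the glial class. Kcnj9 was higher in TRAP in 4 of 4 pools and Kcnj10 lower in 3 of 4, so the 250 bases before each start are shown (RefSeq, GRCm38.p6, coding strand, 5′ to 3′). The Kcnj9 window is chr1:172329323-172329572 on the minus strand and the Kcnj10 window chr1:172340960-172341209 on the plus strand. Capitals mark the TATA box (TATAAA), the GC box (GGGCGG) and the CCAAT box, each searched for its exact letters on both strands.
Kcnj9: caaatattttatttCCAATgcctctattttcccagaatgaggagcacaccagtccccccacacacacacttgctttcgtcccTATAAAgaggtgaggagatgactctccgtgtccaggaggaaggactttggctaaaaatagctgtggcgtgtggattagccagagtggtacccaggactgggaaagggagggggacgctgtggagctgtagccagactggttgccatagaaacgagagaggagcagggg
Kcnj10: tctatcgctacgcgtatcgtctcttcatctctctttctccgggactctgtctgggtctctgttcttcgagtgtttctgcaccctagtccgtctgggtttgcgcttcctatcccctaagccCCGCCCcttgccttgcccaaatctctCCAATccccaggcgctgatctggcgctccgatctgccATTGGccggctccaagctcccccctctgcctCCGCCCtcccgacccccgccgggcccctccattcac
The Kcnj9 window held 1 TATA box and 1 CCAAT box, both on the coding strand, and 5 CpG dinucleotides. The Kcnj10 window held 2 GC boxes, both on the other strand, 2 CCAAT boxes, 1 on each strand, and 17 CpG. No motif overlapped another. Across 32817 windows of this length the median was 6 CpG, and 12.4% held the TATA box, 32.7% the GC box and 33.8% the CCAAT box.

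Over all 14249 genes tested (over 1 CPM in at least 3 libraries), 47.9% differed between TRAP and INPUT by limma at an adjusted p under 0.05, with 23.2% higher and 24.8% lower in TRAP. With the pool as a block these shares were 32.2%, 15.4% and 16.8%. All 9 inward rectifier genes were tested. Kcnj3 and Kcnj9 were higher, Kcnj16 was lower, and the other 6 did not pass, in either fit. The members called were thus 3 of 9 against a background of 47.9% or 32.2%, and their median log2 difference was -0.20 beside -0.05 over all genes tested.

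**Figure D1:**
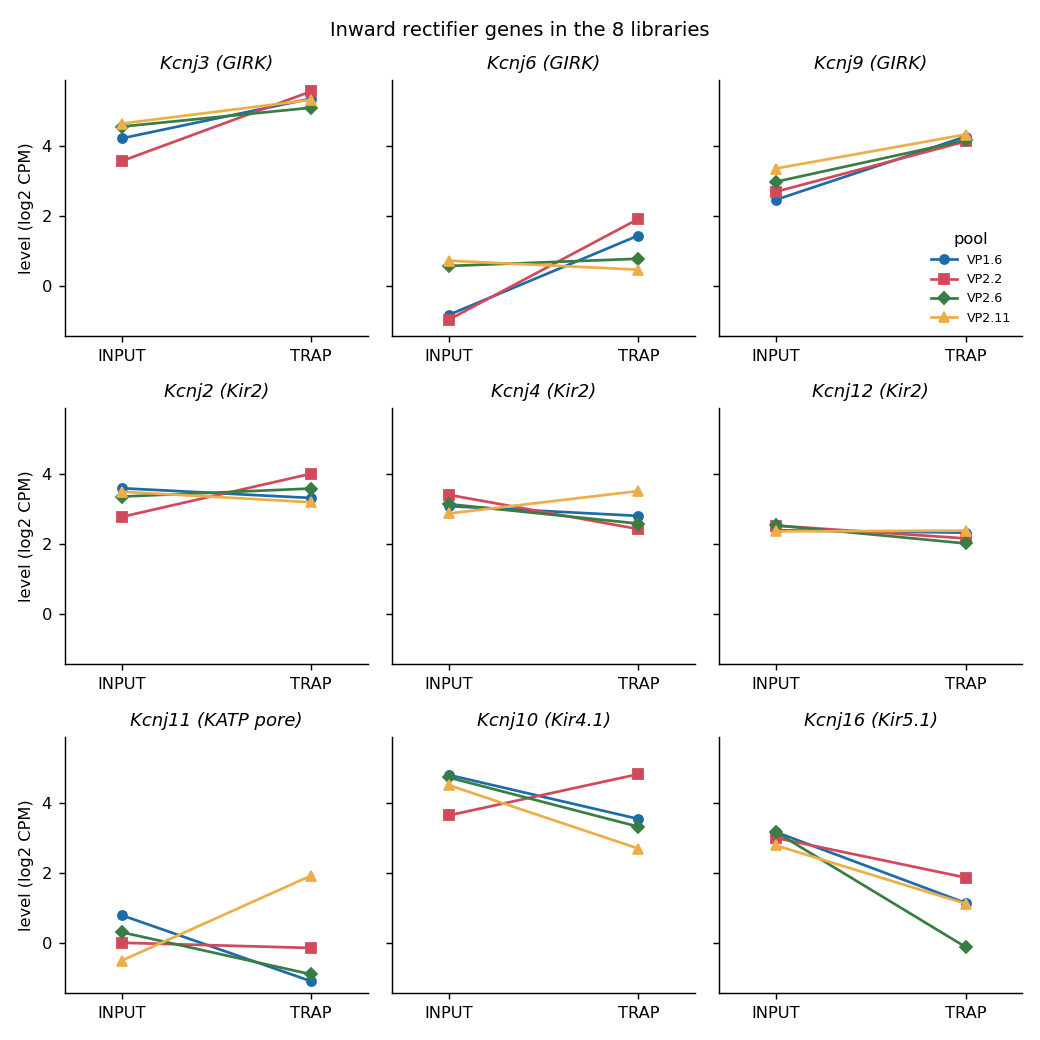
Level of each gene in log2 CPM (y axis) in INPUT and TRAP (x axis). Each line joins the 2 libraries of a pool. Lines of Kcnj3 and Kcnj9 rise and lines of Kcnj16 fall in 4 of 4 pools, while the VP2.2 line of Kcnj10 rises against 3 falling lines.

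Kcnj3 encodes GIRK1, the subunit that needs a partner to reach the cell surface, and lies at chr2:55435970-55598145 on the plus strand (GRCm38). Its TRAP levels were 40.7, 46.8, 33.9 and 39.7 CPM and its INPUT levels 18.5, 11.8, 23.3 and 24.8 CPM, with the pools in the order in which they were introduced. Every TRAP library was above every INPUT library, as for 23.3% of all genes tested, or 47.7% counting both directions. The mean of the deposited levels was 40.3 ± 5.28 CPM in TRAP and 19.6 ± 5.85 CPM in INPUT (SD, n = 4), a log2 difference of 1.09 or 2.12-fold. The adjusted p from limma was 0.0032 (SE 0.23) without and 0.0074 (SE 0.27) with the pool block, and the exact two-sided permutation p was 0.029, the smallest that 4 against 4 libraries can give. The size varied among pools, from 0.54 in VP2.6 to 1.99 in VP2.2. In VP2.2 it came from 813 TRAP and 620 INPUT reads (62.0 and 15.6 CPM by the recovered depth). In VP2.6 it came from 351 and 480 reads (27.1 and 18.7 CPM). By reads the TRAP levels of these pools thus lay further apart than as deposited. Exons of the lincRNA Gm26794 on the other strand overlap Kcnj3.

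Kcnj9 encodes GIRK3, which joins other GIRK subunits and affects their trafficking, and lies at chr1:172320501-172329318 on the minus strand. TRAP levels were 19.2, 17.4, 17.8 and 20.0 CPM, and INPUT levels 5.50, 6.45, 7.85 and 10.2 CPM, in the same pool order. The TRAP libraries were close to each other and lay above all INPUT libraries. The means were 18.6 ± 1.19 and 7.50 ± 2.04 CPM (SD, n = 4). The log2 difference was 1.35, or 2.54-fold, where limma gave an adjusted p of 0.00056, or 0.0025 with the block, with an exact permutation p of 0.029. It ranged from 0.97 in VP2.11 to 1.80 in VP1.6, and its SD over pools, 0.36, was below the 0.65 of Kcnj3. Exons of the antisense gene Gm36937 overlap Kcnj9.

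Kcnj6 encodes GIRK2, the subunit that can also form channels on its own, and lies at chr16:94748636-94997701 on the minus strand. TRAP levels were 2.71, 3.76, 1.71 and 1.38 CPM, and INPUT levels 0.565, 0.514, 1.49 and 1.65 CPM. In VP1.6 and VP2.2 TRAP was well above INPUT, with log2 differences of 2.26 and 2.87, whereas VP2.6 gave 0.20 and VP2.11 gave -0.26. The mean difference of 1.27 was of the size seen for Kcnj3 and Kcnj9, but the groups overlapped and the adjusted p from limma was 0.06 (SE 0.51), or 0.16 with the block (SE 0.67). Without VP2.11 it was 1.78, with an adjusted p from limma of 0.025 that was lost with the block (0.071). Without VP2.2 it was 0.74, with an adjusted p of 0.29, or 0.49 with the block. Few reads stood behind these values: 54 in TRAP and 22 in INPUT of VP2.2 (95% counting interval of the log2 difference 2.15 to 3.68), and 23 and 40 in VP2.6 (-0.62 to 0.97). The intervals cover counting error only, and those of the 2 pools do not overlap. Exons of the antisense gene Gm41505 overlap Kcnj6.

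**Figure D2:**
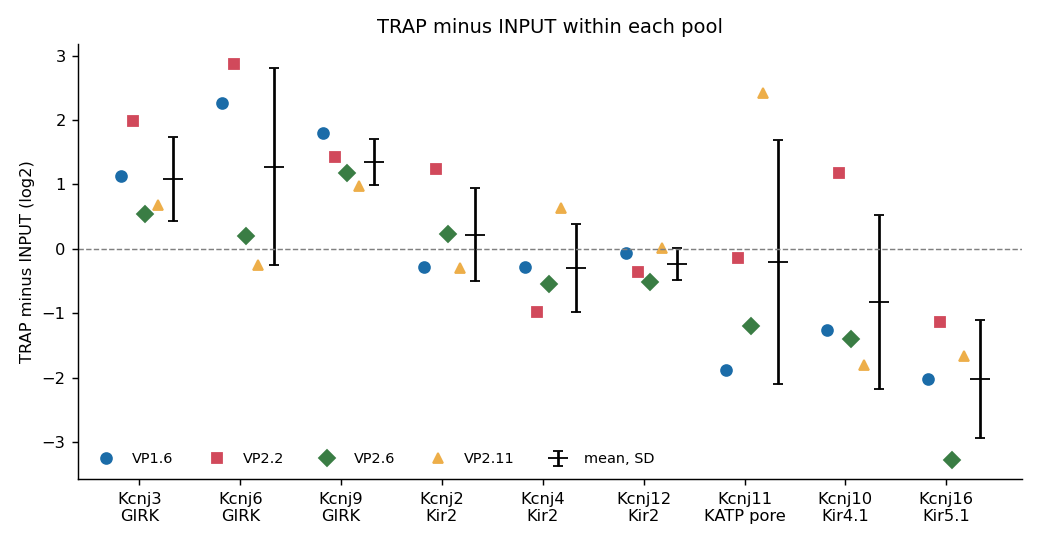
TRAP minus INPUT difference (log2, y axis) of each gene (x axis) in the 4 pools, with the mean and the SD over pools beside the points. Kcnj3 and Kcnj9 lie above 0 and Kcnj16 below 0 in 4 of 4 pools, and the widest spread is that of Kcnj11 (SD 1.89).

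Among the Kir2 genes no difference passed the test. Kcnj2 (Kir2.1; chr11:111066164-111076821, plus strand) was at 10.0, 16.1, 12.1 and 9.19 CPM in TRAP and 12.1, 6.88, 10.3 and 11.3 CPM in INPUT. TRAP was higher in 2 pools and lower in 2, and the log2 difference of 0.22 (SE 0.24) had an adjusted p from limma of 0.47, or 0.63 with the block. VP2.2 gave the highest difference, 1.23, from 326 TRAP and 420 INPUT reads (24.8 and 10.6 CPM by the recovered depth), and without it the mean turned to -0.12.

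Kcnj4 (Kir2.3; chr15:79483714-79505241, minus strand) was at 7.02, 5.41, 6.03 and 11.5 CPM in TRAP and 8.52, 10.6, 8.85 and 7.36 CPM in INPUT. It was lower in TRAP in 3 of 4 pools and higher by 0.64 in VP2.11. The log2 difference was -0.29 (SE 0.25), for which limma gave an adjusted p of 0.36, or 0.53 with the block. Leaving out VP2.11 gave -0.60, with an adjusted p from limma of 0.025 that was lost with the block (0.19). Leaving out VP2.2 gave -0.06, with an adjusted p of 0.86.

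Kcnj12 (Kir2.2; chr11:61022564-61071131, plus strand) varied least among the libraries in its deposited levels. TRAP levels were 5.04, 4.50, 4.07 and 5.24 CPM and INPUT levels 5.28, 5.79, 5.82 and 5.17 CPM. On these levels the groups overlapped by a single library, TRAP VP2.11, and the exact permutation p was 0.057. The log2 difference was -0.23 (SE 0.19), with an adjusted p from limma of 0.33, or 0.64 with the block. By the recovered depth TRAP and INPUT were at 5.94 and 7.69 CPM in VP2.2 and at 3.79 and 5.45 CPM in VP2.6. TRAP of VP2.2 was then above INPUT of VP2.6, so the overlap of a single library holds for the deposited levels only.

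Kcnj11 encodes Kir6.2, the pore of the KATP channel (chr7:46093953-46100764, minus strand), and was over 1 CPM in 4 of 8 libraries. TRAP levels were 0.469, 0.905, 0.537 and 3.78 CPM, and INPUT levels 1.73, 1.00, 1.24 and 0.704 CPM. TRAP was below INPUT in 3 pools and above it by 2.43 on the log2 scale in VP2.11. The mean difference of -0.20 had an SE of 0.65 and an adjusted p from limma of 0.82, or 0.87 with the block. Without VP2.11 the difference was -1.08, with an adjusted p from limma of 0.075, or 0.33 with the block. In VP2.6 the values came from 11 TRAP and 52 INPUT reads. Its partner Abcc8 (SUR1, the sulfonylurea receptor) was higher in TRAP in 4 of 4 pools, at 5.86 ± 0.517 against 3.20 ± 0.494 CPM (SD, n = 4), a log2 difference of 0.88. Its adjusted p from limma was 0.0061 without the block but 0.078 with it. No values were found for Abcc9 (SUR2).

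Kcnj16 encodes Kir5.1, which forms channels together with Kir4.1, and lies at chr11:110968033-111027968 on the plus strand, 38.2 kb before Kcnj2. TRAP levels were 2.202, 3.64, 0.923 and 2.17 CPM, and INPUT levels 8.94, 7.97, 8.93 and 6.87 CPM. All TRAP libraries were below all INPUT libraries, as for 24.4% of all genes tested. The means were 2.23 ± 1.11 and 8.17 ± 0.983 CPM (SD, n = 4), a log2 difference of -2.02, or 4.06-fold lower in TRAP. The adjusted p from limma was 0.0015 (SE 0.37) without and 0.0027 (SE 0.43) with the block, and the exact permutation p 0.029. VP2.6 gave the lowest difference, -3.27 from 14 TRAP and 278 INPUT reads, and VP2.2 the one nearest 0, -1.13 from 60 and 400 reads.

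Kcnj10 encodes Kir4.1, the main potassium channel of astrocytes, and lies at chr1:172341210-172374085 on the plus strand. TRAP levels were 11.6, 28.1, 9.94 and 6.45 CPM, and INPUT levels 27.7, 12.4, 26.3 and 22.6 CPM. TRAP was far below INPUT in VP1.6, VP2.6 and VP2.11, with log2 differences of -1.25, -1.40 and -1.81, and above it in VP2.2, with 1.18. The groups overlapped, and the mean difference of -0.82 (SE 0.41) had an adjusted p from limma of 0.12 in both fits. Without VP2.2 it was -1.49, with an adjusted p of 0.0024 without and 0.0022 with the block. Without VP1.6, VP2.6 or VP2.11 it was -0.68, -0.63 or -0.49, with adjusted p from 0.29 to 0.41 over both fits. In VP2.2 the difference came from 693 TRAP and 928 INPUT reads, and its 95% counting interval, 1.03 to 1.32, did not reach 0. Scaled by the recovered depth these reads are 52.8 CPM in TRAP and 23.4 CPM in INPUT, against 28.1 and 12.4 CPM as deposited. The reads behind Kcnj10 in the other pools could not be recovered, so only the differences within pools, not the levels, can be set side by side.

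Several marker lists had other values in VP2.2 than in the other pools. The median log2 difference of the 8 astrocyte markers was -0.37 in VP2.2 and -1.53, -1.40 and -0.995 in VP1.6, VP2.6 and VP2.11, and 5 of the 8 had their highest difference in VP2.2. Aqp4, the astrocyte water channel that lies with Kir4.1 at endfeet, had a difference of 0.00 in VP2.2 and of -1.26, -1.47 and -1.66 in the others. Even so, only 1 of the 8 astrocyte markers was above 0 in VP2.2. The median of the microglia list, -2.53, was within the range of the other pools (-2.54 to -1.93), and the medians of the cholinergic and GABA neuron lists, 1.62 and 0.35, were above those of the other pools. Of the 4303 genes tested that were below 0 in the other 3 pools, 19.3% were above 0 in VP2.2. TRAP minus INPUT also rose most with exon length in VP2.2, by 0.645 log2 per doubling of length. In VP1.6, VP2.6 and VP2.11 the rise was 0.366, 0.227 and 0.196. The parts that astrocyte mRNA and exon length had in the Kcnj10 value of VP2.2 were not tested.

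The classes ranked GIRK, Kir2 and glial, from high to low, in 3 of 4 pools. The mean log2 difference of the 3 GIRK genes was 1.73, 2.10, 0.64 and 0.46 in the 4 pools. That of the 3 Kir2 genes was -0.21, -0.04, -0.28 and 0.12, although in VP2.2 it averaged opposed values of Kcnj2 (1.23) and Kcnj4 (-0.98). That of Kcnj10 and Kcnj16 was -1.64, 0.02, -2.34 and -1.74. GIRK exceeded the glial genes by 2.66 ± 0.62 and Kir2 by 1.34 ± 0.85 on the log2 scale (mean ± SD over 4 pools), in 4 of 4 pools each. Kir2 exceeded the glial genes by 1.32 ± 0.96, in 3 of 4 pools, with VP2.2 the exception at -0.06. The neighbours Kcnj9 and Kcnj10 differed by 3.05, 2.58 and 2.78 in VP1.6, VP2.6 and VP2.11 and by 0.26 in VP2.2. Kcnj10 and Kcnj16, which can share a channel, also differed from each other, Kcnj10 lying above Kcnj16 by 0.77, 2.31 and 1.87 in the first 3 pools and below it in VP2.11 (-0.15). These class values are descriptions and were not tested.

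Levels of different genes can be compared only per length, here as CPM per kb of exon. These are the deposited levels, which in the pools with known depth carry a shift that differs by gene. On the log2 scale it was -0.91 for Kcnj10, -0.62 for Kcnj2 and -0.4 for Kcnj3 in VP2.2, and 0.32 for Kcnj3 in VP2.6. The order, the SDs and the shares are thus those of the deposited values. In TRAP the order was Kcnj3 (7.72 ± 1.01), Kcnj9 (4.33 ± 0.278), Kcnj4 (3.48 ± 1.27), Kcnj10 (2.59 ± 1.78), Kcnj2 (2.18 ± 0.572), Kcnj12 (1.71 ± 0.193), Kcnj16 (0.568 ± 0.282), Kcnj6 (0.313 ± 0.141) and Kcnj11 (0.387 ± 0.431), ranked by mean log2 level (SD, n = 4). Kcnj3 was above Kcnj9 by 0.83 ± 0.22 on the log2 scale, in 4 of 4 libraries. Kcnj12 was above Kcnj16 by 1.75 ± 0.75 and Kcnj16 above Kcnj6 by 0.81 ± 0.64, again in 4 of 4. From Kcnj9 to Kcnj12 the neighbours differed by less than the SD of their difference, and Kcnj6 and Kcnj11 differed by 0.15 ± 1.81.

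In INPUT the order began with Kcnj4 (4.11 ± 0.631), Kcnj10 (4.12 ± 1.27) and Kcnj3 (3.76 ± 1.12 CPM per kb), whose neighbouring differences were within their SDs. Kcnj16 (2.08 ± 0.250), Kcnj12 (2.00 ± 0.123), Kcnj2 (1.86 ± 0.424) and Kcnj9 (1.75 ± 0.476) followed, and among these 4 the neighbouring differences were within their SDs. Kcnj3 was above Kcnj16 by 0.81 ± 0.54 and Kcnj9 above Kcnj11 by 2.498 ± 0.89 on the log2 scale, each in 4 of 4 libraries. Kcnj11 (0.318 ± 0.118) and Kcnj6 (0.138 ± 0.0783) were lowest. Kcnj9 was thus second in TRAP and seventh in INPUT.

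**Figure D3:**
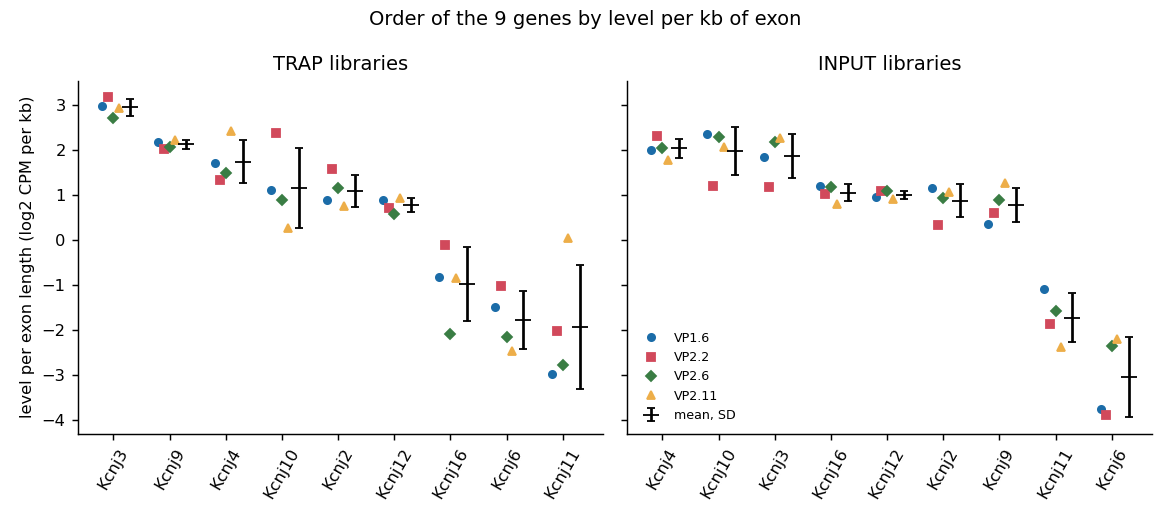
Level per exon length (log2 CPM per kb, y axis) of the 9 genes ranked by their mean in TRAP (left) and in INPUT (right). Points are pools and bars the mean and SD over 4 libraries. Kcnj3 leads in TRAP at 7.72 CPM per kb, and Kcnj6 and Kcnj11 are low in both fractions.

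As a share of the summed level per kb of the 9 genes, the GIRK genes held 53.4% ± 3.04 in TRAP and 27.8% ± 5.78 in INPUT (SD, n = 4). The lowest TRAP share, 50.1%, was above the highest INPUT share, 35.2%. The Kir2 genes held 31.9% ± 4.44 and 40.1% ± 6.48, and their ranges overlapped. Kcnj10 and Kcnj16 together held 13.1% ± 6.67 in TRAP and 30.5% ± 4.21 in INPUT, with VP2.2 the highest in TRAP at 22.7%. With recovered reads in place of deposited levels, over the 8 genes for which VP2.2 gave them, the GIRK share of VP2.2 was 44.5% in TRAP (50.5% as deposited) and 20.6% in INPUT (23.3%), and the glial share 29.1% (22.9%) and 30.5% (26.3%). By reads, the glial share of this pool was thus nearly the same in both fractions. Within the GIRK genes the mean shares differed between the fractions by no more than the SD in INPUT: Kcnj3 held 62.3% ± 2.85 in TRAP and 66.2% ± 5.72 in INPUT, Kcnj9 35.2% ± 3.69 and 31.5% ± 5.77, and Kcnj6 2.49% ± 0.95 and 2.30% ± 0.78. Among these 3 genes Kcnj6 (GIRK2) therefore held the smallest share in every library, at most 3.64%. Kcnj5 (GIRK4) was not part of these shares.

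**Figure D4:**
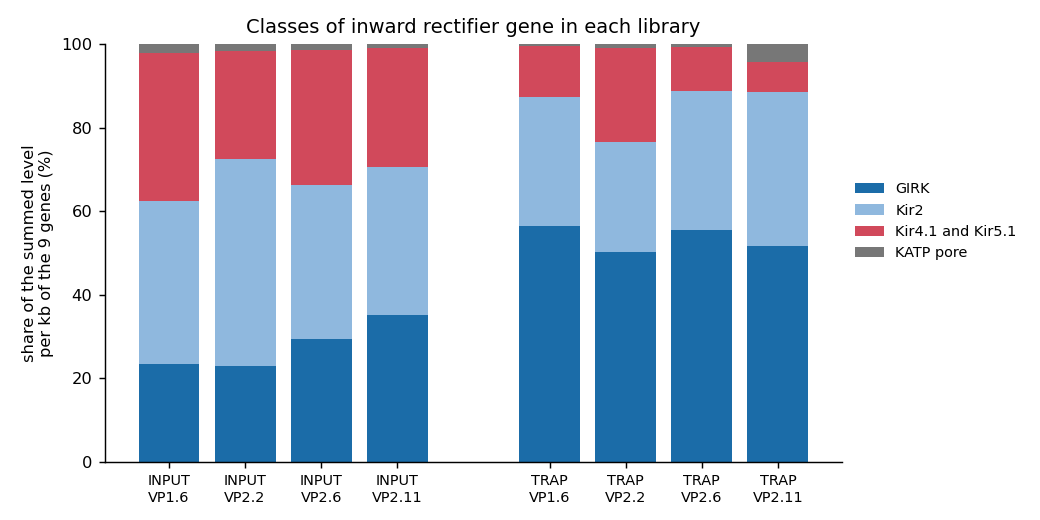
Share of the summed level per kb of the 9 genes (%, y axis) held by each class in each library (x axis, INPUT left and TRAP right). On the deposited levels the GIRK segment is at least 50.1% in TRAP and at most 35.2% in INPUT.

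Genes that act with inward rectifiers were counted next. Over all genes tested, 23.2% were higher and 24.8% lower in TRAP, or 15.4% and 16.8% with the block. These shares are the background for the counts of this paragraph and the next 2. Of 20 tested receptors known to open GIRK channels, 4 were higher and 2 lower in TRAP, or 3 and 2 with the block. Their median log2 difference was 0.29. The GABA-B receptor needs both of its subunits. Gabbr2, which couples to the G protein, was at 58.0 ± 3.34 CPM in TRAP and 27.7 ± 5.48 CPM in INPUT (SD, n = 4), a log2 difference of 1.08 with an adjusted p from limma of 0.00046, or 0.0027 with the block. Gabbr1, which binds GABA, was at 123 ± 8.97 and 139 ± 9.27 CPM, a difference of -0.18 with an adjusted p of 0.23, or 0.55 with the block. Grm2, a metabotropic glutamate receptor, was higher by 1.79 (adjusted p 0.0012, or 0.005 with the block). Drd2 (dopamine) fell by 1.40 and Adra2c (noradrenaline) fell by 1.41 on the log2 scale, with adjusted p of 0.0041 and 0.017 with the block. Drd2 is also a marker of striatal medium spiny neurons, of whose 9 listed markers 7 were lower in TRAP, with sums of 624.9 to 1052 CPM in TRAP and 1500 to 2264 CPM in INPUT. Their part in the Drd2 value was not tested.

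Of 19 Gi/o alpha, G beta and G gamma subunits, 0 were higher and 8 lower in TRAP by limma, or 0 and 7 with the block, with a median of -0.49. The 4 with the greatest change were the G gamma subunits Gng11 (-3.23), Gng7 (-3.15), Gng5 (-3.14) and Gng10 (-2.75), each lower in 4 of 4 pools. Gng7, which is abundant in striatum, was at 74.4 ± 23.1 CPM in TRAP and 678 ± 279 CPM in INPUT. Of 11 regulators of GIRK gating and trafficking, 3 were higher and 1 lower, or 1 and 1 with the block. Ncam1, a neural adhesion molecule, was higher by 1.62, and Rgs8, which speeds the closing of GIRK channels, fell by 0.81. The adjusted p with the block were 0.00018 and 0.0099.

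Of 13 genes for PIP2 synthesis and Kir2 scaffolds, 2 were higher and 2 lower, or 1 and 1 with the block, which were the synaptic scaffolds Dlg3 (1.00) and Dlg4 (-1.05 on the log2 scale). Of 11 tested partners of glial Kir4.1, 3 were higher and 6 lower in both fits. The gap junction genes Gjb6 (-2.56) and Gja1 (-2.14), the adhesion gene Hepacam (-2.20) and Aqp4 (-1.10) were lower, whereas Dmd, which encodes dystrophin, was higher by 1.27. With the trend with exon length removed and the block, 0 of the 3 higher partners passed, and Dmd, with 23.8 kb of exon, was at 0.39 (adjusted p 0.22). Of the other Kir and SUR genes 3 had values, and with the block 0 of them passed: besides Abcc8 they were Kcnj5 (GIRK4; -0.53, adjusted p 0.49) and Kcnj13 (Kir7.1; -0.996, adjusted p 0.22).

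The genes nearest in pattern, by the root mean square (RMS) difference of mean-centred log2 levels over the 8 libraries, were Tfrc (0.05) and Ctps (0.07) for Kcnj3 and Mpp7 (0.09) and Tbc1d1 (0.09) for Kcnj9. For Kcnj16 they were C630043F03Rik (0.13) and Tm2d1 (0.15), and for Kcnj10 Pnpla3 and Gm28151 (both 0.19). Those for Kcnj6 were Phka1 (0.16) and Zfp808 (0.23), and for Kcnj11 Gm4609 (0.19) and Alpl (0.23). Kcnj2 was nearest to Zfp551 (0.03) and 0610010F05Rik (0.04), Kcnj4 to Gins4 (0.05) and 2310022A10Rik (0.08), and Kcnj12 to AI837181 and Fam3c (both 0.04). The median RMS difference over all tested genes lay between 0.48 (Kcnj12) and 1.18 (Kcnj16).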

How the data were processed

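VP tissue of 4 pools was sequenced as TRAP and INPUT. The authors aligned reads with STAR 2.5.1a to the Ensembl mouse assembly, counted unique reads per gene with featureCounts, scaled by TMM in edgeR and fitted limma with voom and quality weights. The values used here were deposited by the authors as log2 CPM. Their fold changes, limits, p-values, test scores and transcript numbers stand in further columns and were not used. Of 14398 entries, 45 repeats were left out. Exon lengths and positions came from GENCODE M21 (GRCm38).

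Tests covered genes above 1 CPM in 3 libraries or more and used limma 3.58.1 (lmFit, eBayes with trend) in R 4.3.3 on fraction alone, two-sided, with p-values adjusted by Benjamini-Hochberg (threshold 0.05). Single genes were also tested by an exact permutation test over libraries (scipy). A second fit had the pool as a block, since TRAP and INPUT of a pool come from 1 homogenate and share its label, which pairs the libraries. Same-pool libraries deviated in opposite directions from their fraction means (r across genes -0.745 to -0.495, different pools 0.0457 to 0.441). Reads were recovered from differences within VP2.2 and VP2.6, where 99.58% and 99.89% of low genes fell on whole reads (tolerance 2e-08 log2), and for 14 of 18 pairs of member and pool. The scripts were tested on simulated data. Of INPUT VP1.6 and both VP2.11 libraries the values are rounded, so their depth is unknown.

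The members and lists were chosen with earlier results of these data known. The text names all members, up to 4 genes per related list with the largest change past the threshold in both fits, Abcc8, Abcc9, both GABA-B subunits, Aqp4, Slc17a6, the most changed gene of each marker list, and the 2 genes nearest each member in pattern. Further genes of some lists are named beside these. Alternatives were the block, other filters, log2(CPM + 1), array weights, other scalings, removal of a length trend and each pool left out. The p-values of the fit with the block rest on the spread of the difference between these pools, which limma moves towards a trend over all genes. They therefore do not measure the spread of a gene alone. Kcnj10 and Kcnj12 had SDs over pools of 1.35 and 0.25 but SEs with the block of 0.395 and 0.348. The p-values of the fit on fraction alone and of the permutation test ignore the pairing. Since same-pool libraries deviated in opposite directions, the fit on fraction alone can understate the spread between pools. It passed 6830 genes against 4592 with the block.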

Additional observations from a re-analysis of the deposited data

How the results depend on the processing

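Kcnj3, Kcnj9 and Kcnj16 kept direction and call in every alternative that tested them, each pool left out included. Of 150 pairs of member and alternative, 135 kept direction and side of the threshold, 7 came to pass it and 8 turned sign. Over all genes, 6830 passed, 4592 with the pool as a replicate block, 4505 with the block and the trend with exon length removed, 4862 to 6894 with a pool left out and 3232 to 4156 with a pool left out and the block (added after seeing the data). The paired fit changed no member's call. Members higher numbered 2, and 2 to 3 with a pool left out. Members lower numbered 1, and 1 to 2 with a pool left out. They numbered 2 with array weights, with or without the block, Kcnj10 being added (-1.08, adjusted p from limma 0.003, and -1.17, adjusted p 0.0026), and 0 when over 1 CPM was asked of all 8 libraries, since Kcnj16 was then not tested. Kcnj2 turned to -0.12 without VP2.2 in both fits and reached 0.39 without VP2.11. Kcnj4 turned to 0.063 with the length trend removed. Kcnj11 turned to 0.98 with quantile normalization, to 0.36 without VP1.6 and to 0.13 without VP2.6, the latter pair in both fits, and was at -0.95 (adjusted p 0.073) with array weights. Kcnj6 passed with quantile normalization (2.23, adjusted p 0.016). The cause of these changes was not tested. TRAP minus INPUT rose with exon length in each pool, by 0.196 to 0.645 log2 per doubling, and without that trend Kcnj3 was at 0.98, Kcnj9 at 1.34 and Kcnj16 at -1.98, each still past the threshold with the block. With a pool left out, GIRK minus glial was 2.42 to 2.85, GIRK minus Kir2 1.07 to 1.67 and Kir2 minus glial 1.07 to 1.78. The shares from recovered reads were also added after seeing the data, and moved the GIRK share of TRAP VP2.2 from 50.5% to 44.5%. Undivided by length, 4 of 9 genes kept their rank in TRAP. Where Kcnj6 and Kcnj11 rested on 11 to 54 TRAP reads, counting error alone spanned over 1 log2 unit.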

Other observations

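Among the marker genes with the largest change in their lists, S100b (astrocytes) fell by 3.00, Mog (oligodendrocytes) fell by 2.54, Tmem119 (microglia) fell by 5.15 and Adora2a (striatal medium spiny neurons) fell by 2.07 on the log2 scale, each with an adjusted p from limma past the threshold in both fits. Slc18a3 (cholinergic neurons) fell by 1.75, but the other cholinergic markers were not lower: Chat gave 0.70 (adjusted p 0.034, or 0.066 with the block) and Slc5a7 0.81 (0.074, or 0.083). Among the GABA neuron markers Pvalb fell by 1.38 and Slc32a1 fell by 1.26, while Gad1 gave 0.30 and Gad2 -0.05, with adjusted p of 0.39 and 0.9. Neurod1 was higher by 2.84 and Snap25 by 1.93. Cspg4, a marker of oligodendrocyte precursors, was higher in TRAP by 1.98 (adjusted p 0.0014, or 0.00088 with the block) in 4 of 4 pools, whereas Gpr17 of the same list fell by 1.01 (0.0019, or 0.014), and Pdgfra (-0.28) and Vcan (0.72) did not pass. Flt1, an endothelial marker, was higher by 2.37 (0.008, or 0.0047), with TRAP levels from 4.22 to 20.8 CPM. Vwf of the same list gave 2.28 (0.036, or 0.071 with the block). Pecam1 (0.59), Kdr (0.89), Pdgfrb (-0.14), Rgs5 (-0.26) and Vtn (-0.39) of that list did not pass in either fit. Th (dopamine neurons) gave -0.34, with an adjusted p of 0.057, or 0.3 with the block.

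By Dixon's ratio, no level or difference of the 9 inward rectifier genes stood apart from the rest of its group of 4. The groups examined were 27, and chance marks about 1 in 20. With 4 values per group the ratio marks only extreme gaps, so it cannot decide whether a pool was unusual. For Kcnj10 the log2 difference was 1.18 in VP2.2 and -1.25, -1.40 and -1.81 in VP1.6, VP2.6 and VP2.11. Its adjusted p from limma was 0.12 with all pools and 0.0024 without VP2.2.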
